A study of Mus musculus with 4 samples.

Results

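The RNA of the newborn mouse retina was described from the input libraries of an RNA immunoprecipitation experiment, that is, from RNA set aside before the antibody was used. These were 2 of the 4 libraries of the study, chosen by their labels alone, and they are called replicates 1 and 2. The study asked which transcripts are bound by YTHDF2, a protein that reads the m6A mark on RNA; the 2 pulldown libraries enter no comparison here. Both input libraries came from retinas of wild type C57BL/6 mice at postnatal day 0, and the labels name no transgene, deletion or treatment. The retinas were dissociated with the protease papain and handled as retinal neurons with an EZ-Magna RIP kit, and 100 ng of RNA entered each library of a TruSeq Stranded RNA kit. How many pups were pooled, their sex, and any step that removes ribosomal RNA or selects poly(A) tails are not given in the sources used here. The study calls its RIP replicates biological, but no source says which animals or litters each input came from, so the differences described below may be technical.

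The retina is made from a sheet of dividing progenitors that gives rise to neurons in a fixed but overlapping order. Ganglion cells, horizontal cells, cones and many amacrine cells are born mainly before birth, whereas most rods, the bipolar cells and the Muller glia are born around or after it. At birth a mouse retina therefore holds dividing progenitors, newly born photoreceptor precursors and young neurons of the inner retina side by side, and its photoreceptors do not yet have outer segments. Total RNA of any cell is mostly ribosomal, and the remainder includes mitochondrial transcripts, small structural RNAs such as 7SK and 7SL, and messenger RNA.

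The files gave 39499994 counts over 52550 genes in replicate 1 and 36236531 in replicate 2. At least 1 count was found for 19245 genes in replicate 1, for 19735 in replicate 2 and for 17149 in both. Of 21806 nuclear protein-coding genes, 12943 were detected in both libraries, 672 in replicate 1 alone and 771 in replicate 2 alone. Levels are compared between genes in FPKM, counts per kilobase of transcript and per 1000000 counts. Ribosomal genes are part of that total, so that 1 FPKM in these files equals 27.0 and 31.2 units in replicates 1 and 2 on a scale on which nuclear protein-coding genes sum to 1000000. At least 1 FPKM was reached by 4113 nuclear protein-coding genes in replicate 1, by 4361 in replicate 2 and by 3507 in both, and 353 of them reached 10 FPKM and 41 reached 100 FPKM in both.

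Ribosomal and mitochondrial genes took most of the counts. A pair of genes on chromosome 17 that lie antisense to an 18S ribosomal RNA sequence held 55.5% of all counts in replicate 1 and 55.0% in replicate 2, a mean of 55.3% ± 0.386 (SD, n = 2). Mitochondrial ribosomal RNA held 17.3% and 16.7%. The 3 genes of 7SK, a small RNA that holds back the transcription elongation factor P-TEFb, had 8.52% and 8.33%. The 3 genes of 7SL, the RNA of the signal recognition particle, had 3.91% and 3.82%. Nuclear protein-coding genes had 9.01% and 8.92%, a mean of 8.97% ± 0.0640 (SD, n = 2). Outside ribosomal RNA genes their share was 33.1% and 31.6%. The exact binomial (Clopper-Pearson) 95% intervals of these shares are at most 0.0324 percentage points wide, and they and all other intervals given here cover counting error only, since reads without molecular identifiers are not independent molecules. These large classes thus lay close together in the libraries, although their differences exceed counting error.

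**Figure D1:**
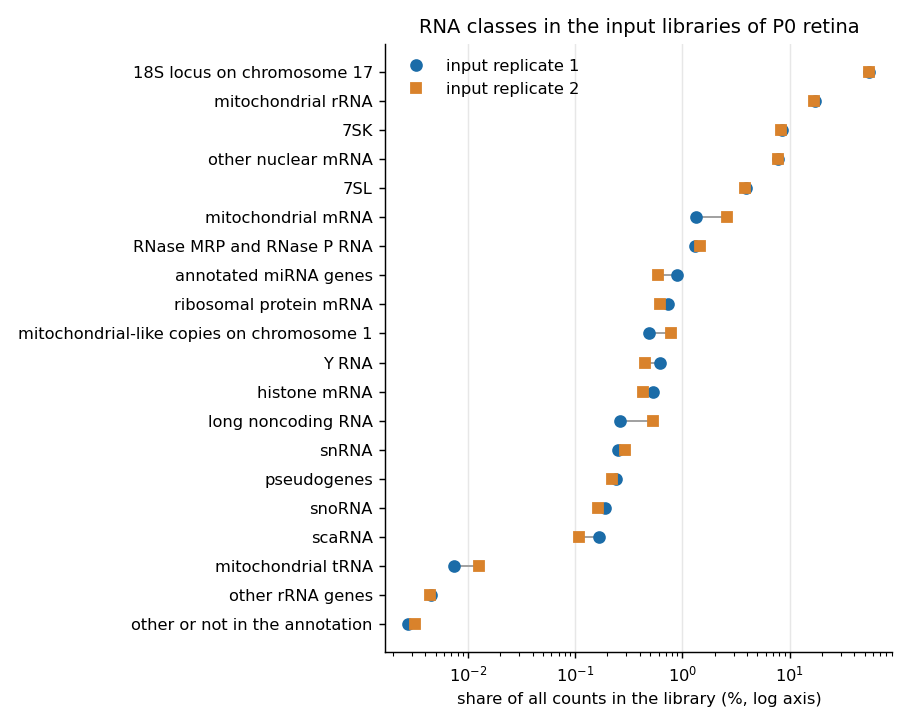
Share of all counts taken by each RNA class, in percent on a log axis, with a circle for input replicate 1 and a square for input replicate 2. The symbols of the 5 largest classes nearly coincide, from 55.5% and 55.0% for the 18S locus to 3.91% and 3.82% for 7SL, whereas mitochondrial mRNA lies at 1.34% and 2.60% and long noncoding RNA at 0.261% and 0.526%.

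The gene with the most counts was AY036118 (ENSMUSG00000105361), annotated as a long noncoding RNA at chr17:39847113-39848035 of GRCm38, minus strand, with 14406365 counts in replicate 1 and 12281107 in replicate 2. CT010467.1 (ENSMUSG00000106106), annotated as ribosomal RNA at chr17:39846353-39848827, minus strand, had 7529109 and 7644399. AY036118 lies inside CT010467.1, and all of its 923 bases are identical to it. The gene in the sense direction of the same locus, Gm42418 (ENSMUSG00000098178, chr17:39846958-39848788, plus strand), shares 1244 bases with CT010467.1 in reverse complement at 100% identity. It had only 2344 and 2103 counts. The stretch at chr17:39848142-39848201 is shown for both genes, since it tells which strand carries the ribosomal sequence: the capitals in Gm42418 are the 24 bases that end 18S ribosomal RNA, and the capitals in CT010467.1 are their reverse complement.
Gm42418: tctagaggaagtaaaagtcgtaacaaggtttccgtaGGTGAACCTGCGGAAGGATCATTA
CT010467.1: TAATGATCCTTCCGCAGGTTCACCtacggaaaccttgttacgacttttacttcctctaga
The counts therefore stood under the gene names of the strand opposite to 18S ribosomal RNA. The strand setting of the counting is not given in the sources used here, so sense and antisense genes of one locus are uncertain throughout.

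Several of the abundant small RNAs are counted at identical or similar copies, so the shares above are shares of counts and not of distinct reads. Rn7sk (chr9:78175303-78175633), the 7SK gene, had 2272954 counts in replicate 1 and 2025853 in replicate 2. Its copies Gm24447 and Gm26315, 90.8% and 91.2% identical to it over their aligned bases, had 549246 and 542910 counts in replicate 1 and 500464 and 491792 in replicate 2. The 7SL genes Rn7s1 and Rn7s2 are identical over 300 bases, and the count of Rn7s2 was 98.8% and 99.0% of that of Rn7s1. The same holds for mitochondrial sequence copied into chromosome 1: the count of Gm10925 was 102% of that of mt-Atp6, to which it is identical over 678 bases, in both replicates, and the count of Gm28661 was 100% of that of mt-Co2. Each of the identical pairs has to be read as a single RNA whose gene of origin cannot be told from the counts. How reads were divided between Rn7sk and its less similar copies is not given in the sources used here.

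Rmrp, the RNA subunit of RNase MRP, which cuts precursor ribosomal RNA, had 398718 and 314904 counts in replicates 1 and 2. Rpph1, the RNA of RNase P, which trims the start of transfer RNAs, had 119899 and 211277. Small nuclear RNAs, which build the spliceosome, held 0.251% and 0.291% of counts. None of the 37 with at least 50 counts in both libraries lay past 2-fold between them. Among the 8623 genes of all kinds with that many counts, 17.1% did. Some of the 37 may be copies that share reads, so they may not be separate observations. Gm23849 had 8616 and 9660 counts, and Gm24950, also of 191 bases, had 8563 and 9609. Small nucleolar RNAs, which guide modification of other RNAs, held 0.189% and 0.162%. The Cajal body RNAs held 0.166% and 0.108%, of which the gene Gm22009 alone had 60119 and 34689 counts. Genes outside the naming rule that were chosen after their values were seen are Rpph1, Gm22009, Gm23849, Gm24950, the mitochondrial copies and the Y RNA, microRNA and histone genes.

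The Y RNAs are small RNAs bound by the Ro60 protein. Rny1 (chr6:47788069-47788180, minus strand) had 226525 counts in replicate 1 and 139627 in replicate 2, and Rny3 (chr6:47781624-47781725, plus strand) had 18815 and 21425. Rny1 was thus the more counted in both libraries, but it was lower in replicate 2 whereas Rny3 was higher there. Their GENCODE sequences are shown because the pair differs in count although it shares much sequence; capitals mark the 42 bases that lie in words of 7 bases found in both.
Rny1: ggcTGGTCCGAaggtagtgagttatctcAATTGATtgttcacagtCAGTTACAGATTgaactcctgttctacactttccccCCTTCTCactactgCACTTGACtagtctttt
Rny3: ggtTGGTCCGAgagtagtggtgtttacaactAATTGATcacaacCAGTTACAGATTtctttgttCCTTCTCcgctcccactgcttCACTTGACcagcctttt

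Genes annotated as microRNAs held 0.890% of counts in replicate 1 and 0.587% in replicate 2, but 94.3% and 93.7% of those counts lay on 3 genes, Gm24270, Gm23935 and Mir6236. Gm24270 had 120515 and 64854 counts, and Gm23935 had 103513 and 99892. They are annotated at chr9:56223715-56223771 and chr16:11144125-11144181 and have the same 57 bases. Another gene with the same 57 bases, Gm24245, had only 43 and 11 counts, so identical sequence was not counted evenly here. Mir6236 (chr9:110281287-110281409, plus strand) had 107437 and 34595. The sequence shared by Gm24270 and Gm23935 is shown because it carries more than any other of the class, and no part of it is capitalised.
Gm23935: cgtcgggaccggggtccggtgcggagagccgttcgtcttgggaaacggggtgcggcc
Only 7 other microRNA genes reached 50 counts in both libraries. Host transcripts of the neuronal microRNAs miR-9 and miR-124 were counted, with almost no counts on the hairpins. The mature microRNAs themselves were not assessed. The long noncoding gene C130071C03Rik, which spans the Mir9-2 hairpin on chromosome 13, had 1692 and 1964 counts, or 7.18 and 9.18 FPKM, whereas the hairpin had 1 and 1. The host of Mir9-3 had 45 and 30 counts, and that of Mir9-1, Gm3764, had 26 and 39. Mir124a-1hg had 1743 and 1324 counts, and Mir124-2hg had 1369 and 1752. The mature miR-9 sequences, shared by the 3 Mir9 genes and taken from RefSeq on GRCm38.p6, are shown with their seeds, bases 2 to 8, in capitals; each seed is the stretch with which that arm pairs to its targets.
mmu-miR-9-5p: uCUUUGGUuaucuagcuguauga
mmu-miR-9-3p: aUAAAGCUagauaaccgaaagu

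The nuclear protein-coding genes with the highest levels were led by cytoskeletal, histone and translation genes. Tmsb10, which encodes the actin-binding peptide thymosin beta 10, was at 754 FPKM in replicate 1 and 370 FPKM in replicate 2. Eef1a1, the elongation factor that brings aminoacyl transfer RNA to the ribosome, was at 479 and 410 FPKM. Ptma, which encodes the acidic nuclear protein prothymosin alpha, was at 357 and 324 FPKM. Dapl1 was at 248 and 184 FPKM. Of the 20 highest genes by mean FPKM, 13 were histone genes, 3 encoded ribosomal proteins (Rpl23a, Rpl38 and Rps29) and these 4 made up the remainder. Tmsb10 had the lowest level in replicate 2 relative to replicate 1 of the 4. The 20 highest genes held 20.6% of the FPKM of nuclear protein-coding genes in replicate 1 and 17.6% in replicate 2, and the lists of 20 taken in each library shared 18 genes. The lists of the 1000 highest genes shared 835.

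Replication-dependent histone genes are transcribed in S phase, and their mRNAs end in a stem-loop in place of a poly(A) tail. Of 67 histone genes named Hist in the annotation, of which 54 are on chromosome 13, 56 were at or above 1 FPKM in both libraries. They held 5.96% of nuclear protein-coding counts in replicate 1 and 4.85% in replicate 2. Hist1h2af, an H2A gene, was at 613 and 285 FPKM. Hist1h4h, an H4 gene, was at 485 and 383 FPKM, and the H3 gene Hist1h3i was at 460 and 338 FPKM. Further members of the 20 highest were Hist1h2ak, Hist1h4a, Hist1h4d, Hist1h2bb, Hist1h3b, Hist1h2ai, Hist1h3c, Hist1h2bn, Hist1h3h and Hist1h2ab. All core histone families were present, with summed levels of 2531 and 1878 FPKM for H2A, 1390 and 1196 for H2B, 2171 and 1687 for H3 and 1978 and 1589 for H4. The linker histone H1 genes summed to 258 and 184 FPKM. Histone genes of a family are near-identical, so a level of any single member is uncertain and the family sums are the firmer values.

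Genes that mark retinal progenitors were the most uniformly present of the 15 marker lists. Of 17 progenitor markers, 16 were at or above 1 FPKM in both libraries, and the exception was Nes, an intermediate filament gene, at 0.398 and 0.924 FPKM. Dapl1, placed in this list as a gene of late progenitors, was the highest. Ccnd1, the cyclin that drives cells from G1 into S phase, was at 117 FPKM in replicate 1 and 81.8 in replicate 2. The eye-field transcription factors followed, with Rax at 15.8 and 12.4 FPKM, Six3 at 10.4 and 7.32, Lhx2 at 7.23 and 6.90 and Pax6 at 6.73 and 7.39. Hes5 and Hes1, Notch target genes that hold progenitors back from differentiation, were at 13.5 and 13.4 FPKM and at 10.1 and 7.13 FPKM. The tissue named in the labels thus showed its defining genes in both libraries.

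Markers of cells that are leaving the cycle came next. Of 16 neurogenic precursor genes, 13 were at or above 1 FPKM in both libraries. Hes6, which opposes Hes1, was at 21 FPKM in replicate 1 and 16.9 in replicate 2, and Btg2, an antiproliferative gene, was at 15.2 and 14.8. On the scaled log2 ratio of replicate 2 to replicate 1, Hes6 was at -0.25 and Btg2 at 0.03, the latter within its counting error of 0.05. Neurod4 and Sox11 were higher in replicate 2, at 2.38 and 12.4 FPKM and at 2.21 and 7.74 FPKM. Atoh7, which makes progenitors able to form ganglion cells, was at the threshold with 0.968 and 1.17 FPKM. Dll3, a Notch ligand relative, was below 1 FPKM in both, at 0.914 and 0.673.

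Cell cycle genes were widely detected. Of 20 S phase genes, 14 were at or above 1 FPKM in both libraries. Pcna, the sliding clamp of DNA polymerase, was at 16.1 FPKM in replicate 1 and 14.7 in replicate 2. Dut and Uhrf1, which act in nucleotide supply and in copying DNA methylation, were at 6.07 and 4.85 FPKM and at 4.90 and 5.02 FPKM. Of 20 genes of G2 and M phase, 15 were at or above 1 FPKM in both. Ube2c, the ubiquitin-conjugating enzyme of the anaphase-promoting complex, was at 24 and 12.9 FPKM. The cyclin genes Ccnb2 and Ccna2 were at 7.77 and 5.82 FPKM and at 5.32 and 7.53 FPKM. The S phase genes summed to 57.6 and 53.5 FPKM and the G2 and M genes to 71.1 and 73.9, so the sums lay closer together than many of the single members.

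Photoreceptor precursor genes covered a wide range of levels, with both regulators and phototransduction genes on either side of 1 FPKM. Of 20 genes, 8 were at or above 1 FPKM in both libraries. Gngt2, the cone transducin gamma subunit, was at 26.7 FPKM in replicate 1 and 19.1 in replicate 2. Neurod1, a factor of photoreceptor and amacrine cells, was at 7.38 and 18.9 FPKM. Otx2 and Crx, the homeobox genes that set photoreceptor fate, were at 9.53 and 8.88 FPKM and at 8.33 and 8.72 FPKM. Nrl, the rod determinant, was at 4.73 and 3.41 FPKM, and Nr2e3, its target, was at 2.74 and 2.43. Opn1sw, the short-wave cone opsin, was at 3.62 and 2.46 FPKM, and Prdm1 was the other member at or above 1 FPKM in both.
Gnat1, the rod transducin alpha subunit, was at 0.284 and 0.159 FPKM, and Pde6b, the rod phosphodiesterase, was at 0.165 and 0.0696. Arr3 and Opn1mw, the cone arrestin and middle-wave opsin, had 0 counts in both libraries. A count of 0 was read against a set floor of 3 counts, or 0.0759 and 0.0828 CPM (counts per 1000000) in replicates 1 and 2. The exact Poisson 95% interval of a count of 0 reaches 3.69 counts. The nuclear receptor genes Thrb and Rxrg, regulators of cones, were at 0.177 and 0.318 FPKM and at 0.724 and 0.727 FPKM. Other members below 1 FPKM in both were Gngt1, Gnat2, Sag, Aipl1 and Rcvrn.

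Markers of ganglion cells, the output neurons of the retina, were present at lower levels. Of 22 genes, 5 were at or above 1 FPKM in both libraries. Sncg, gamma synuclein, was at 21.7 FPKM in replicate 1 and 14.6 in replicate 2, Gap43, a growth cone gene, was at 6.41 and 6.45, and Stmn2 was at 4.59 and 3.99. The neurofilament gene Nefl and the surface marker Thy1 were the others in both. Rbpms, which is often used to stain ganglion cells, was at 0.894 and 0.986 FPKM. The POU factors Pou4f1, Pou4f2 and Pou4f3 were at 0.528 and 1.18 FPKM, 0.620 and 0.569 FPKM, and 0.166 and 0.133 FPKM. Their order kept Pou4f3 lowest in both libraries. Also below 1 FPKM in both were L1cam, Isl1, Nrn1, Eomes, Ebf3, Elavl4, Ebf1, Slc17a6, Irx2, Tbr1 and Nefh. In bulk RNA, fewer cells of a type and less RNA per cell cannot be told apart.

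Among 17 amacrine genes, 4 were at or above 1 FPKM in both libraries. Tfap2b and Tfap2a, transcription factors of amacrine cells, were at 3.92 and 7.77 FPKM and at 3.34 and 4.63 FPKM. Ptf1a, which specifies amacrine and horizontal cells, was at 2.09 FPKM on 131 counts in replicate 1 and 0.730 FPKM on 42 counts in replicate 2. Markers of transmitter subtypes were low: Chat, the cholinergic enzyme gene, had 0 and 3 counts, and Th, the dopaminergic one, had 0 in both. Below 1 FPKM in both libraries were also Slc32a1, Tfap2c, Slc6a9, Neurod2, Gad1, Slc18a3 and Neurod6.
Of 5 horizontal cell genes, Prox1 alone was at or above 1 FPKM in both, at 1.04 and 2.45. Onecut1 and Onecut2 were at 0.679 and 2.22 FPKM and at 0.165 and 0.902 FPKM. All 3 were thus higher in replicate 2. Lhx1 was at 0.0844 and 0.117 FPKM, and Calb1 had 0 counts.
Of 11 bipolar genes, Bhlhe22, which amacrine cells also express, was at or above 1 FPKM in both, at 1.31 and 1.71. Lhx4 and Prkca were at 0.638 and 0.670 FPKM and at 0.205 and 0.482 FPKM. Vsx1, Grm6, Scgn and Gabrr1 had 0 counts in both libraries, and Trpm1 had 7 and 0. Cabp5, Pcp2 and Grik1 were under 0.3 FPKM.

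Of 9 Muller glia genes, 5 were at or above 1 FPKM in both libraries. Dkk3, a secreted Wnt modulator, was at 27.8 FPKM in replicate 1 and 30.2 in replicate 2. Glul, glutamine synthetase, was at 25.1 and 18.9 FPKM, and Apoe, the lipid carrier, was at 5.01 and 3.85. Rlbp1, which binds retinaldehyde in mature Muller glia, was at 1.05 and 1.02 FPKM. Aqp4 and Abca8a had 0 counts in both, and Kcnj10 and Clu were below 1 FPKM. Many of these genes are also expressed by progenitors, so the list does not separate the classes.

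Genes that set position across the retina were detected on both axes. Of 17, 7 were at or above 1 FPKM in both libraries. Tbx2, a dorsal T-box factor, was at 6.64 FPKM in replicate 1 and 6.13 in replicate 2. Ephb2, a ventral guidance receptor, was at 3.87 and 2.40 FPKM, and Efnb2, a dorsal ephrin, was at 2.17 and 2.53. Vax2, the ventral homeobox gene, was at 1.88 and 1.32 FPKM. Foxd1, a forkhead factor of the temporal retina, was at 0.388 and 0.184 FPKM.

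Markers of cells from outside the neural retina were low. Over 7 lists with 76 genes, 2 genes were at or above 1 FPKM in both libraries, and 35 had 0 counts in both. Their summed level was 7.86 FPKM in replicate 1 and 7.35 in replicate 2. The 117 genes of the 8 lists of progenitors, retinal neurons and Muller glia summed to 794 and 675 FPKM. The largest parts of that retinal sum were Dapl1, at 248 and 184 FPKM, and the cell cycle gene Ccnd1, at 117 and 81.8. Such sums depend on which genes were listed, and the lists were set with earlier results known. The 2 genes of these 7 lists at or above 1 FPKM were Kdr, the VEGF receptor, at 2.66 and 3.05 FPKM and Cldn5, an endothelial claudin, at 1.71 and 1.06. Kdr had 997 and 1037 counts and Cldn5 had 101 and 57. Which cells the Kdr counts came from cannot be told from bulk RNA. The other endothelial and pericyte markers were at or near 0, with Cdh5 at 7 and 6 counts, Pecam1 at 7 and 7, and Esam, Tek, Tie1 and Kcnj8 at 0. The remaining members, Pdgfrb, Rgs5 and Cspg4, had at most 46 counts in a library.
No marker of astrocytes, microglia, pigment epithelium, lens, red cells or ocular mesenchyme reached 1 FPKM in either library. Among astrocyte genes the highest were S100b, Pax2 and Pdgfra, Gfap had 13 and 9 counts, and Aldh1l1 had 0 and 5. Among microglial genes, Csf1r had 39 and 24 counts, Cx3cr1 46 and 13, and C1qb 7 and 7. With P2ry12, C1qa, C1qc, Tmem119, Aif1, Itgam and Ptprc, the 10 genes summed to 0.937 and 0.760 FPKM. In the pigment epithelium list Dct, Best1 and Mitf were highest, Rgr and Slc45a2 had at most 7 counts, and Rpe65, Tyr, Tyrp1, Ttr, Pmel, Mlana and Lrat had 0 counts in both libraries.
Of 19 lens genes, 16 had 0 counts in both libraries, and Bfsp1, Bfsp2 and Cryba1 were the exceptions. Those at 0 were the crystallin genes Cryaa, Cryga, Crygb, Crygc, Crygd, Cryge, Crygf, Crygs, Cryba2, Cryba4, Crybb1, Crybb2 and Crybb3, with Lim2, Mip and Hsf4. The globin genes Hba-a2 and Hba-a1, whose near-identical sequences make the split between them uncertain, had 14 and 12 counts and 14 and 14 counts, followed by Hbb-y with 0 and 4. Hbb-bs and Slc4a1 had at most 5 counts, and Hbb-bt, Alas2 and Epb42 had 0. Of the mesenchyme and surface genes, the cornea keratin Krt12 had 25 and 5 counts, Col1a1 13 and 10, and Foxc1 9 and 7. Col1a2 and Col3a1 had at most 12 counts, and Krt5, Lum, Dcn and Kera had 0.

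**Figure D2:**
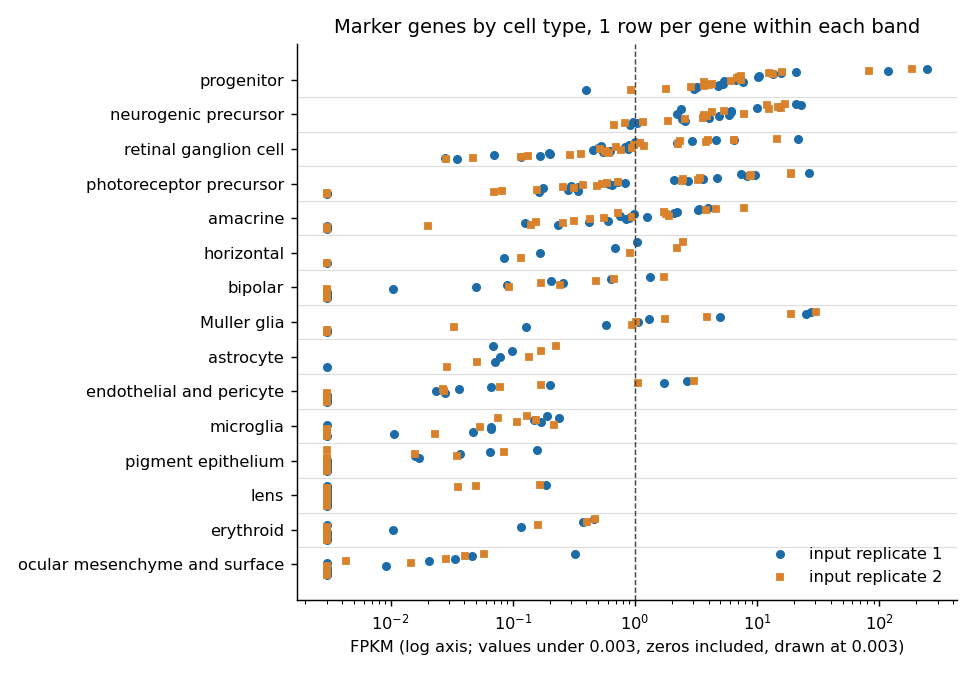
FPKM on a log axis for the genes of 15 marker lists, with 1 row of points per gene in each band, a circle for input replicate 1 and a square for replicate 2; values under 0.003, zeros included, are drawn at 0.003, and the dashed line is 1 FPKM. Of 17 progenitor genes 16 lie right of the line in both libraries, whereas of the genes in the lower 7 bands only Kdr and Cldn5 do.

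Genes of the cytoskeleton were among the highest listed. Of 21 cytoskeletal genes, 18 were at or above 1 FPKM in both libraries. After Tmsb10 came Actb, beta actin, at 163 FPKM in replicate 1 and 101 in replicate 2, and Tuba1a, the alpha tubulin of young neurons, at 173 and 80.6. Stmn1, a tubulin-binding protein gene, was at 78.6 and 67.2 FPKM. Dcx, a microtubule gene of migrating neurons, was lower, at 0.254 and 0.789 FPKM, at least 2-fold higher in replicate 2, whereas Tuba1a was at least 2-fold lower.
Of 24 synaptic genes, 10 were at or above 1 FPKM in both. Cplx2, a complexin, was at 17 and 13.8 FPKM, and Vamp2, the vesicle SNARE, at 11.1 and 8.15. The glutamate receptor genes Gria1, Gria2, Grin1 and Grin2b were at most 0.336 FPKM in either library. Over the whole list, 13 genes were below 1 FPKM in both, and the median level was 0.594 and 0.756 FPKM.

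Housekeeping programs were present nearly in full. All 79 cytosolic ribosomal protein genes were at or above 1 FPKM in both libraries, with means from 6.33 to 314 FPKM, led by Rpl23a at 365 FPKM in replicate 1 and 263 in replicate 2, Rpl38 at 340 and 265, and Rps29 at 211 and 265. Of 31 proteasome genes, 29 were, led by Psmc1 at 15.8 and 13.1 FPKM, Psma6 at 11.3 and 11.3, and Psmb2 at 11.1 and 9.76. Of 53 nuclear genes of the respiratory chain, 49 were, led by Cox6b1 at 98.7 and 71.4 FPKM, Cox8a at 66.3 and 53.6, and Ndufa3 at 49.1 and 38.6.
Among 17 glycolysis genes, 10 were at or above 1 FPKM in both. Gapdh was at 91.5 FPKM in replicate 1 and 39.9 in replicate 2, Pkm at 15.5 and 13.7, and Eno1 at 9.18 and 6.84. The brain hexokinase Hk1 was below 1 FPKM in both libraries.

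Dissociated tissue often carries immediate early and heat shock transcripts. Of 20 immediate early genes, 8 were at or above 1 FPKM in both libraries. Egr1 was at 23.9 FPKM in replicate 1 and 18.8 in replicate 2, Jund at 14.7 and 8.33, and Jun at 8.56 and 7.67. Fos was at 2.5 and 4.59 FPKM, and Npas4 had 7 counts in each. Of 11 heat shock genes, 5 were at or above 1 FPKM in both, led by the constitutive Hsp90ab1 at 82.6 and 48.3 FPKM, Hspa8 at 14.6 and 13.4 and Hspe1 at 9.51 and 8.81. The inducible Hspa1a and Hspa1b, near-identical copies, had 5 and 3 counts and 3 and 3 counts.

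Of 14 long noncoding RNA genes in the list, 13 were in the table, 7 were at or above 1 FPKM in both libraries, and Rmst was not analysed here. Malat1, a nuclear speckle RNA (chr19:5795690-5802672, minus strand), had 11997 counts in replicate 1 and 96877 in replicate 2, or 41.3 and 367 FPKM. It made up 11.7% and 50.8% of all long noncoding RNA counts, and without it the class held 0.230% and 0.259% of counts. Miat, a noncoding RNA of the developing retina, was at 9.76 and 16.3 FPKM, and the imprinted H19 was at 13.9 and 12.5. Neat1, the scaffold of paraspeckles, was at 0.0479 and 0.0642 FPKM.
Xist, the RNA that coats the inactive X chromosome of females, had 330 counts in replicate 1 and 504 in replicate 2. The Y-linked genes had 7 and 68 counts for Ddx3y, 23 and 72 for Eif2s3y, 25 and 37 for Kdm5d and 8 and 17 for Uty. Transcripts of both sex chromosomes were thus counted in both libraries.

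The agreement of the libraries was measured as the log2 ratio of replicate 2 to replicate 1 over the 8623 genes with at least 50 counts in both, after scaling by the trimmed mean of M values (TMM). With 1 library on each side there is no test, and a gene was called when it lay past 2-fold. Of the 8623 genes, 1473 were called, 17.1% of those compared: 1317 were at least 2-fold higher in replicate 2, which is 15.3%, and 156 at least 2-fold lower, which is 1.81%. Across genes the log2 CPM had a Pearson r of 0.865 and a Spearman rho of 0.776, as descriptions, since genes are not independent replicates. The SD of the log2 ratio was 0.78, its median was -0.003, and the median counting error of a ratio was 0.15. The biological coefficient of variation from edgeR's common dispersion was 0.372. The spread between the libraries was therefore several times wider than counting error. It was wide at high levels too: with the genes in 4 bins of equal size by mean level, 276 of 2156 were past 2-fold in the highest bin. The lowest bin had 282 of 2156 and the bin above that 495 of 2156. Near the minimum of 50 counts in both libraries, genes that differ widely are filtered out, so the lowest bin is not a fair baseline.

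**Figure D3:**
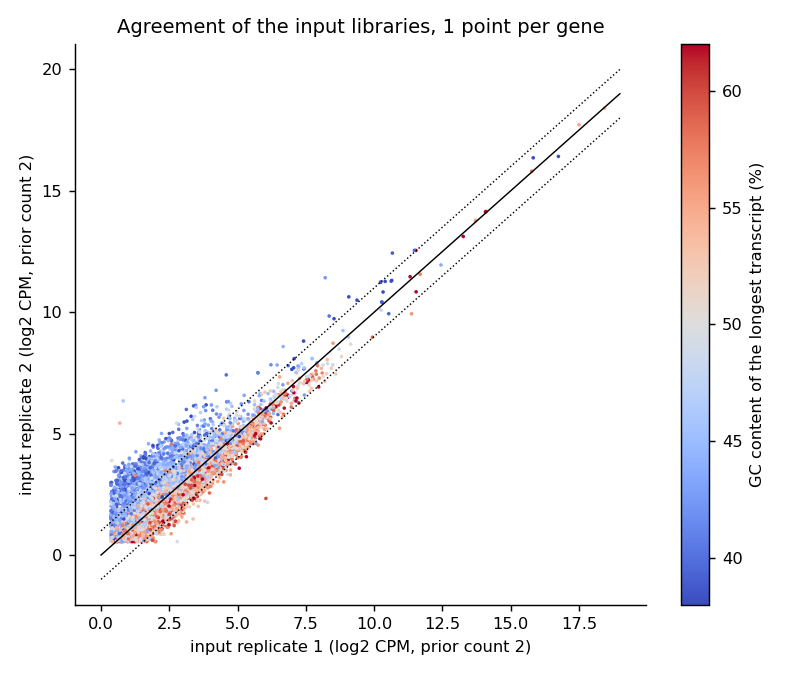
Level of 8621 genes with a known GC content in input replicate 1 (x axis) and replicate 2 (y axis), both in log2 CPM with a prior count of 2, coloured by the GC content of the longest transcript; the solid line is equality and the dotted lines are 2-fold. Points above the upper dotted line are mostly blue (low GC), and points below the diagonal are mostly red (high GC).

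The ratio moved with the base composition and length of transcripts. The genes were put into 5 bins of equal size by GC content. In the lowest bin, from 30.9% to 44.5%, the median log2 ratio was 0.95, a 1.94-fold higher level in replicate 2, and 830 of 1725 genes were at least 2-fold higher. In the following bins the median was 0.32, -0.07, -0.26 and -0.33. In the highest bin 6 of 1724 genes were at least 2-fold higher and 65 at least 2-fold lower. The lowest bin held 12.3% of the nuclear protein-coding counts among the genes compared in replicate 1 and 22.1% in replicate 2, whereas the highest held 25.5% and 18.9%. With 5 bins by transcript length, the median went from -0.20 in the shortest to 0.63 in the longest, and 631 of 1724 genes of the longest bin were at least 2-fold higher in replicate 2. The Spearman rho of the ratio was -0.587 with GC content and 0.369 with length over 8621 genes, again as descriptions.
The ratio moved with the properties jointly. With 4 bins of each, the median ratio in the lowest GC bin was 0.31 for the shortest transcripts and 1.40 for the longest, where 495 of 727 genes were at least 2-fold higher. In the highest GC bin it was -0.33 and -0.23. A smooth trend on length and GC content fitted 49.2% of the variance of the ratio and left an SD of 0.56. What in the making of the libraries moves with these properties was not tested.

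**Figure D4:**
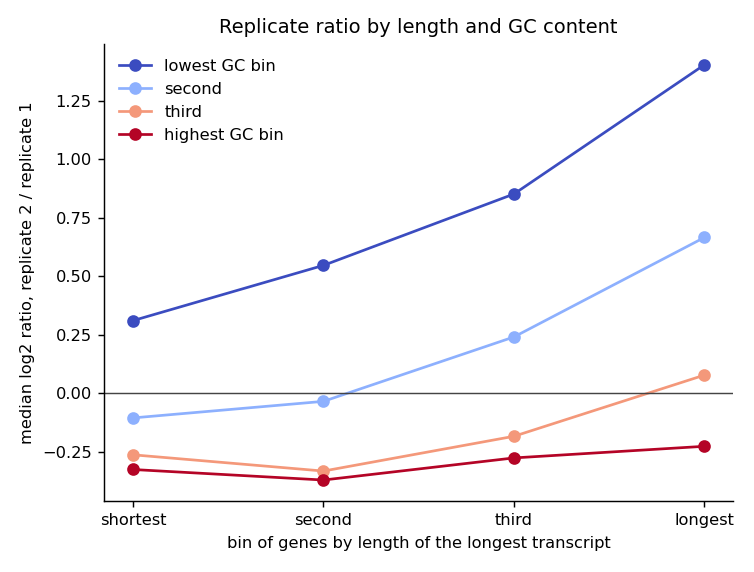
Median log2 ratio of input replicate 2 to replicate 1 (y axis) in 4 bins of genes by transcript length (x axis), with a line for each of 4 bins by GC content. The line of the lowest GC bin climbs from 0.31 to 1.40, and that of the highest GC bin stays between -0.37 and -0.23.

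Mitochondrial mRNAs, which are poor in GC, were higher in replicate 2. The summed share of the mitochondrial ribosomal RNAs was not, at 17.3% in replicate 1 and 16.7% in replicate 2. All 13 mRNAs had ratios above 0, from 0.13 for mt-Co3 to 1.77 for mt-Cytb, with GC contents from 31.9% to 41.1%. The share of counts of these mRNAs was 1.34% in replicate 1 and 2.60% in replicate 2. mt-Co1, a subunit of cytochrome oxidase, had 115408 and 212110 counts, and mt-Cytb, of complex III, had 65966 and 195959. The ribosomal RNA mt-Rnr1, with 35.8% GC, had 4462770 and 3093922 counts, and mt-Rnr2, with 35.4% GC, had 2354247 and 2973540. The ribosomal RNAs thus moved in opposite directions at nearly the same GC content.

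Among protein-coding genes, the 8 largest ratios upward belonged to genes with 51 to 96 counts in replicate 1. Hist3h2a, a histone gene on chromosome 11, had 69 counts in replicate 1 and 2877 in replicate 2, a log2 ratio of 5.54. Golga4, a golgin of vesicle tethering, had 51 and 523, a log2 ratio of 3.50. Nsrp1, a splicing regulator, followed with 56 and 434, then Sp3 with 68 and 486, Eml5 with 96 and 672, Cenpe with 54 and 382, Ppig with 61 and 425, and Smc3 with 81 and 559. The 8 transcripts have GC contents from 37.8% to 50.2% and lengths from 2146 to 9482 bases.
In the other direction Sox12, a SoxC transcription factor of neurons, had 2660 counts in replicate 1 and 176 in replicate 2, a log2 ratio of -3.71. Arrb1, beta arrestin, had 416 and 97, Atcay 353 and 89, and Rac1, a small GTPase of the cytoskeleton, 603 and 157. Cacna2d2 had 238 and 63, Kdelr1 560 and 163, Zfp646 475 and 140, and Dpysl5, a collapsin response gene, 910 and 283. Their GC contents ran from 48.3% to 59.9%. Sox12 thus moved opposite to its SoxC relatives Sox11 and Sox4, which had log2 ratios of 1.86 and 0.72.

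Over all 27 lists, 386 of 518 genes had at least 50 counts in both libraries, and 45 of these, 11.7%, were past 2-fold, 38 up and 7 down in replicate 2, against 17.1% of all genes compared. The G2 and M list had 8 of 20 members at least 2-fold higher in replicate 2 and a median log2 ratio of 0.38, against 15.3% and -0.003 over all genes. Mki67, the proliferation antigen Ki-67, had 453 counts in replicate 1 and 2388 in replicate 2. Top2a, the topoisomerase that untangles chromosomes, had 566 and 1487, and Cenpf, a kinetochore protein gene, had 199 and 887. The others past 2-fold were Cenpe, Kif11, Nusap1, Bub1 and Hmmr. In contrast, Ube2c had 2578 and 1266 counts, and Ccnb1 had 467 and 467. The 8 members past 2-fold had a median GC content of 42.6% and a median length of 5020 bases, and the 12 others 49.9% and 2344. After the trend on length and GC content was taken out, the median of the list was 0.29, with 4 of 20 members past 2-fold, against -0.02 and 610 of 8621 over all genes.
The horizontal cell genes Prox1, Onecut1 and Onecut2 had 364 and 778, 117 and 346, and 93 and 458 counts. All 3 were at least 2-fold higher in replicate 2, against 15.3% of all genes compared. After the same trend was taken out, their median log2 ratio was 0.86 in place of 1.74. Onecut1 was then at 1.76, Onecut2 at 0.86 and Prox1 at 0.16. Only 1 of 3 was thus past 2-fold, against 610 of 8621 over all genes. The noncoding RNA list had a median of 0.80, with Malat1 at 3.21. After the trend the list median was 0.13, and Malat1 itself was still at 1.86.

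Several programs were lower in replicate 2 by their medians. Glycolysis genes had a median log2 ratio of -0.36 with 3 of 15 at least 2-fold lower, against 1.81% of all genes: Gapdh had 15648 counts in replicate 1 and 6208 in replicate 2, Pgam1 666 and 251, and Aldoa 965 and 395. Pfkp, with 183 and 437 counts, was at least 2-fold higher. Progenitor genes had a median of -0.29 with none of 17 at least 2-fold lower, and Nes, with 107 and 225 counts, was the only member at least 2-fold higher. Nuclear respiratory chain genes were at -0.25 and ribosomal protein genes at -0.16. After the trend the same medians were -0.04 for glycolysis, -0.03 for progenitors, -0.10 for the respiratory chain and 0.02 for ribosomal proteins, all nearer to 0 than before. The synapse median went the other way, from -0.23 to -0.42.
Neurogenic precursors had a median of -0.19 and photoreceptor precursors of -0.11, against 0.10 and -0.20 after the trend. Ganglion cell genes had a median of 0.16 with 3 of 15 at least 2-fold higher, close to the 15.3% of all genes, and a median of 0.09 after the trend. Of these 3, the neurofilament gene Nefm had 240 and 837 counts, Klf7 335 and 695, and Pou4f1 103 and 210. Amacrine genes stood at 0.01, with Tfap2b and Gad2 past 2-fold upward, and the Muller glia genes at 0.09. The amacrine median rested on 10 genes and depended on the filter. At a minimum of 10 counts in both libraries it was -0.37 over 14 genes. Ptf1a, with 131 and 42 counts, was among the members left out at 50 counts. Cytoskeletal genes had a median of -0.18 but members on both sides, with Tuba1a and Mapt at least 2-fold lower and Map1b, Map2 and Dcx at least 2-fold higher.
For the remaining lists the median was -0.0003 for S phase, -0.08 for axis patterning, -0.19 for immediate early, -0.05 for heat shock, -0.12 for proteasome, 0.44 for 3 bipolar genes and -0.18 for 2 endothelial genes. In the heat shock list Hsp90aa1 had 133 and 845 counts, whereas Hsp90ab1 had 10254 and 5461. Other lists had no member with 50 counts in both libraries.

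**Figure D5:**
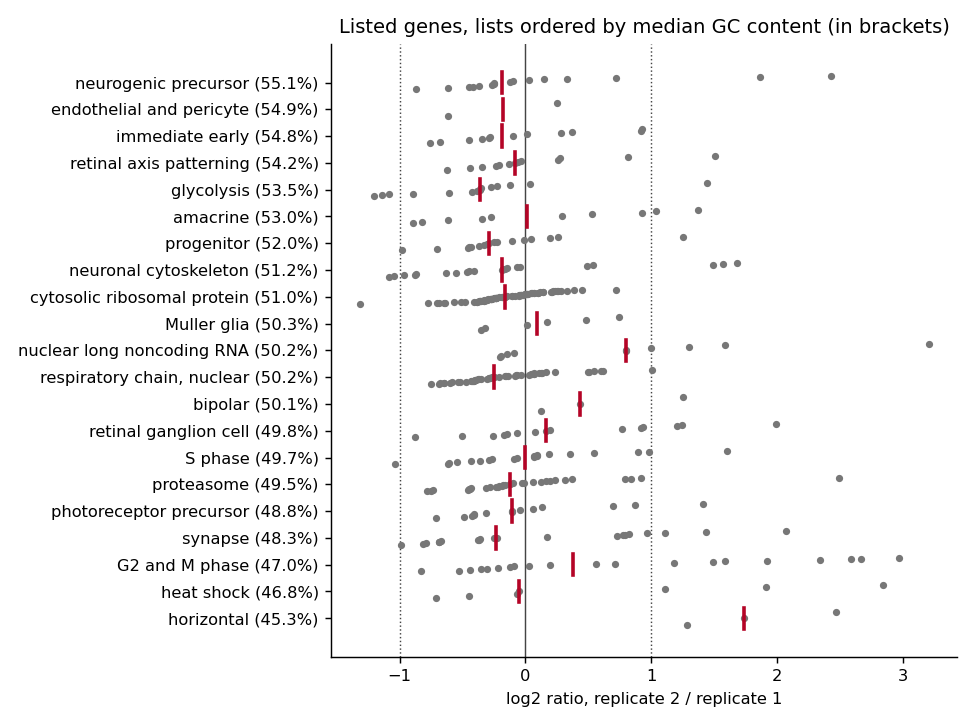
Log2 ratio of input replicate 2 to replicate 1 (x axis) for each listed gene with at least 50 counts in both libraries (grey points), with the list median as a red bar; lists are ordered by the median GC content of these members, given in brackets, and dotted lines mark 2-fold. The horizontal cell, noncoding RNA, bipolar and G2 and M lists have the highest medians, at 1.74, 0.80, 0.44 and 0.38, and all others lie between -0.36 and 0.16.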

How the data were processed

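The authors deposited raw counts per gene, which are not normalized and not pooled, and FPKM values, which they scaled by gene length and library size. The submitters' processing notes name STAR 2.5, HTSeq and GRCm38, without settings. Only the input columns were used. For 8623 genes, 99.8% of FPKM values implied the same gene length in both libraries within 5%. Types, coordinates, longest transcripts, GC content and sequences were read from GENCODE M21, built on GRCm38, where 52403 of 52550 identifiers matched; miRNA sequences came from RefSeq.

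Shares were taken of all counts, and levels from deposited FPKM at a threshold of 1. Where a symbol had several identifiers, that with more counts was used. Log2 ratios used edgeR 4.0.16 (R 4.3.3), TMM and a prior count of 2 over genes with at least 50 counts in both libraries; no test was made between single libraries. The trend used mgcv 1.9.3 with a tensor product of basis size 5. The ratio step was tested on simulated data. Alternatives were other scalings, filters, prior counts, thresholds, units and denominators, and each library left out; the trend's residuals for the agreement of all genes were added after seeing the data.

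The gene lists, and the genes chosen for description, were set with earlier results of these data known. Named are the 20 nuclear protein-coding genes highest by mean FPKM, the 10 other genes highest by share, the 3 highest members of each list, markers below 1 FPKM in both libraries, the 8 largest ratios each way among protein-coding genes, and Xist, Ddx3y, Eif2s3y, Kdm5d and Uty. Other genes named were chosen after their values were seen. Some genes under these rules are not reported here.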

Additional observations from a re-analysis of the deposited data

How the results depend on the processing

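No paired analysis was possible because the inputs are replicates of a single group and no second group is compared with them. The shares given per library span 8.92 to 9.01% for nuclear protein-coding genes, 55.0 to 55.5% for the 18S locus and 18.6 to 19.4% for mitochondrially encoded genes when each library is left out, and the nuclear protein-coding share was 32.3% of counts outside ribosomal RNA genes. Of 117 retinal markers, 53 reached 1 FPKM in both libraries (56 to 60 with a library left out), 95 reached 0.1 FPKM, 23 reached 5 FPKM and 102 reached 1 after rescaling so that nuclear protein-coding genes sum to 1000000; of 76 other markers, 2 did (2 with either library left out), against 9, 0 and 19. On the rescaled FPKM 11832 nuclear protein-coding genes reached 1 in both, in place of 3507 (4113 to 4361 with a library left out). The 1473 genes past 2-fold were 1447 to 1477 under the other scalings, and rescaling moved the median ratio of all genes to as low as -0.15 (upper quartile), where 1115 were up and 332 down. They became 2816 at a minimum of 10 counts, 347 at 200, 7468 with no filter, 245 on log2(FPKM + 1), and 610 after the length and GC trend; 3225 were past 1.5-fold and 271 past 4-fold. Of the 386 listed genes compared, 27 in place of 45 were past 2-fold after the trend. Over all genes 610 of 8621 were, or 7.08%, so the fall is not particular to the listed genes. The rho with GC content was -0.543 at a minimum of 200 counts, and that with length was 0.392 for protein-coding genes only, 0.339 at 10 counts and 0.285 at 200. Low counts, the share taken by ribosomal genes and single libraries on each side limit what can be read for any gene.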
